A study of Mus with 21 samples.

Results

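The complement component genes C1qa, C1qb, C1qc, C1s1, C3, C4b, Cfb, C3ar1 and C5ar1 were followed in RNA-seq libraries of mouse skin wounds taken on Day 4. They were chosen as a list of complement components and complement receptors and found by gene symbol, and all 9 of them were among the 18806 genes counted. The wounds were full-thickness circles of 8 mm on the dorsal skin of 8-week-old female wild-type C57BL/6 mice, held open by a splint. There were 7 groups with 3 libraries each, 21 in all. The control wounds received no hydrogel. The other wounds received a hydrogel of gelatin methacryloyl (GelMA), a light-cured gelatin, set to pH 6.4, 7.4 or 8.4 and loaded with acidic fibroblast growth factor (aFGF) or basic fibroblast growth factor (bFGF). These groups are named 6.4/aFGF, 7.4/aFGF, 8.4/aFGF, 6.4/bFGF, 7.4/bFGF and 8.4/bFGF. Every hydrogel carried a growth factor, so an effect of the gel and an effect of the factor cannot be told apart against the control. The labels call the libraries of a group biological replicates, and the mouse that gave each library is not given in the sources used here.

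Complement is a cascade of proteases and binding proteins that tags particles and dying cells and calls immune cells to a site of injury. It can be started by C1q bound to its target, which activates the proteases C1r and C1s, or by lectins that bind sugars, and both routes cut C4 and C2 into an enzyme that cuts C3. The alternative route uses factor B, cut by factor D, to build another C3-cutting enzyme that amplifies the reaction. The small fragments C3a and C5a act on the receptors C3ar1 and C5ar1 on macrophages, neutrophils and mast cells. The liver makes much of the complement in plasma, while macrophages and fibroblasts make a part of it in the tissue.

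Each library held 34362558 to 37817833 counts, and the members had between 4131 counts (C5ar1) and 182024 counts (C3) in any library, so counting error was small against the differences between libraries. Levels are compared between libraries in CPM, the count as a share of a library total scaled by the trimmed mean of M values (TMM), and between genes in FPKM, which also divides by gene length. A gene counted as called when edgeR's quasi-likelihood test over all genes gave an adjusted p below 0.05 together with an absolute log2 fold change above 0.58. Markers of fibroblasts (33719.7 to 73021 CPM summed) and keratinocytes (3803 to 9467 CPM) were found in every library. In 3 libraries, genes of another tissue stood apart. Replicate 3 of 7.4/aFGF had a summed level of 421 CPM for cartilage and bone genes (6.79 to 18.2 CPM in the other libraries). Replicate 2 of 8.4/bFGF had 1021 CPM for ovary and oviduct genes (8.90 to 25.8 CPM in the others). Replicate 2 of 8.4/aFGF had 4997 counts of Alb, the albumin of the liver (29 to 493 counts in the others). Smaller liver counts were found elsewhere. The liver gene Ttr had 830 counts in this library, 68 in 6.4/aFGF replicate 2, 52 in 7.4/aFGF replicate 2 and 28 in 7.4/aFGF replicate 1. Values without the 3 libraries that stood apart are given beside many of the comparisons that include them, but not for every member. The labels call each sample skin wound tissue, which mixes cell types, so fewer cells of a type and less RNA per cell cannot be told apart.

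Early components were abundant in all groups. Over the 21 libraries, the median level was 789.7 FPKM for C1qb and 780 FPKM for C1qa, which placed them 76th and 79th among the 18806 genes. C1qc followed at 692 FPKM, and C3 at 640 FPKM. Cfb, the alternative pathway protease, lay lower at 321 FPKM. C1s1 reached 159 FPKM and C4b 145 FPKM. The receptors were the lowest members, with 72.4 FPKM for C5ar1 and 53.1 FPKM for C3ar1. This order was the same in 21 of 21 libraries for most neighbouring pairs. The exceptions were C1qb over C1qa (7 of 21 libraries), C1qc over C3 (13 of 21) and C1s1 over C4b (14 of 21), so these neighbours did not differ beyond their spread.

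The rest of the pathway was uneven in level. Of 50 further complement genes listed, 49 were in the count files. Among the early proteases, C1ra, the partner of C1s1, had a median of 105 FPKM (67.7 to 139), and C2, the partner of C4, had 25.9 FPKM (16.1 to 44.9). Cfd, the factor D made by fat cells, had a median of 623 FPKM and the widest range of the abundant genes, from 115 to 4470 FPKM. Cfp, which encodes properdin, the stabiliser of the alternative enzyme, had 264 FPKM. The inhibitor of C1r and C1s, Serping1, stood at 544 FPKM (373 to 702), close to C3. The membrane inhibitors Cd55 and Cd59a had 6.56 and 3.60 FPKM. The terminal genes that form the membrane pore were low. C6 had a median of 5.83 FPKM (2.44 to 11.0), C8g 0.446 FPKM, C7 0.407 FPKM, Hc, the mouse C5 gene, 0.185 FPKM, and C9 0.0253 FPKM. Masp1, the lectin route protease, had 2.95 FPKM. Among receptors, Itgam, a chain of the complement receptor CR3, had 147 FPKM, and C5ar2, the other C5a receptor, had 1.82 FPKM. The plot of pathway levels shows the early and alternative steps high and the terminal step low. Reads of the near copies C4b and C4a, C1s1 and C1s2, and C1ra and C1rb can be split in counting, so their values are uncertain to that extent. C4a was the listed gene absent from the count files, so no count of it could be set beside C4b.

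**Figure D1:**
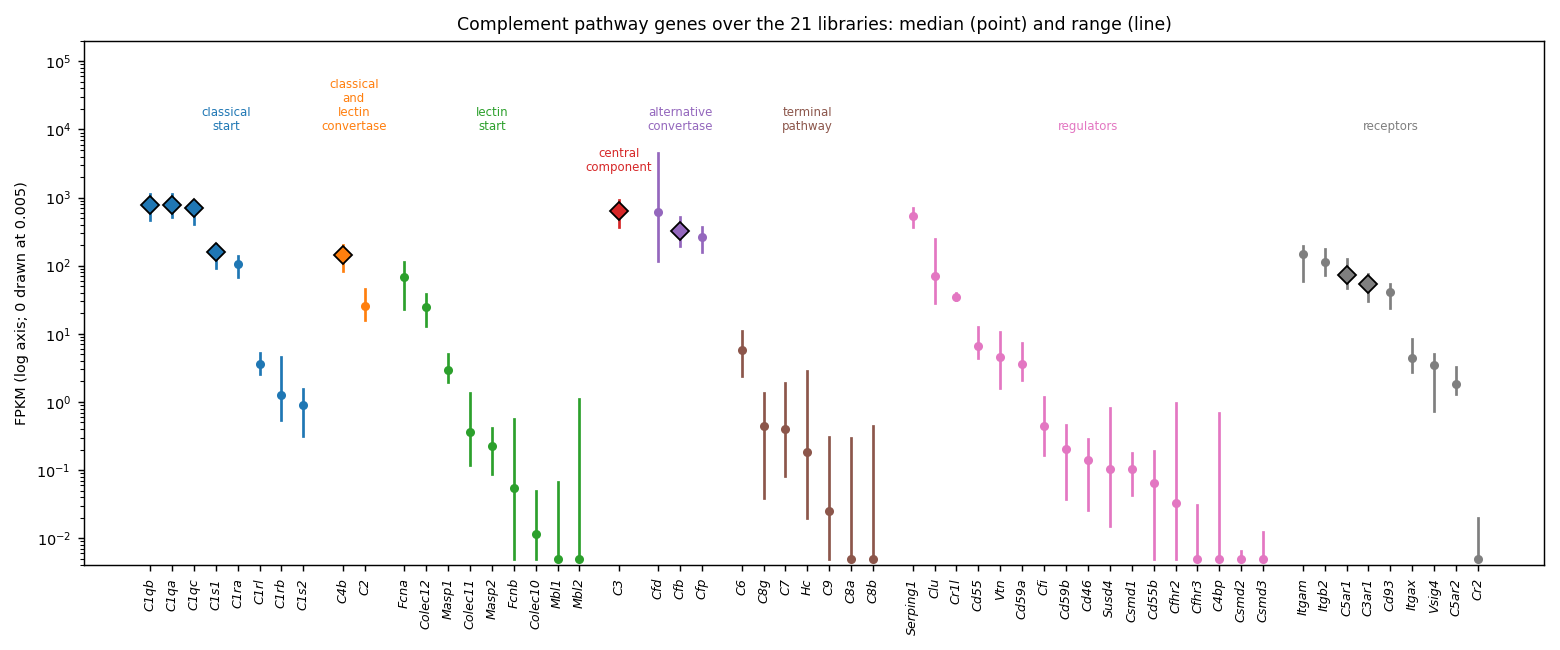
Levels of the complement genes in FPKM on a log axis, with a point at the median and a line from the lowest to the highest of the 21 libraries, coloured by step of the pathway (diamonds are the 9 members, and 0 is drawn at 0.005). C1qa, C1qb, C1qc and C3 lie between 640 and 789.7 FPKM in the median, while C6 at 5.83 FPKM is the highest of the terminal genes.

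The 3 chains of C1q, the molecule that recognises targets of the classical route, moved together. C1qb had 854, 925 and 1034 CPM in the control libraries. With aFGF it had 642, 748 and 1211 CPM at pH 6.4, 1066, 1078 and 670.0 CPM at pH 7.4, and 1236, 1263 and 806 CPM at pH 8.4. With bFGF it had 626, 677 and 796 CPM at pH 6.4, 868, 894 and 704 CPM at pH 7.4, and 924, 469.8 and 649 CPM at pH 8.4. The aFGF groups held both the highest and some low libraries, and each group overlapped the next in the order of means. C1qa ran from 497 to 1229 CPM and C1qc from 410.0 to 1005 CPM. All of them were highest in 8.4/aFGF replicate 2, the library with liver genes, and lowest in 8.4/bFGF replicate 2, the library with ovary and oviduct genes. The FPKM ratio of C1qc to C1qa was 0.811 ± 0.050 (SD, n = 21) and that of C1qb to C1qa was 0.973 ± 0.087 (SD, n = 21), so the chains kept close to a fixed proportion.

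C1s1, the protease that C1q activates through C1r, had 487, 565 and 609 CPM in control wounds. It had 397, 337 and 523 CPM in 6.4/aFGF, 613, 491 and 331 CPM in 7.4/aFGF, and 494, 601 and 308 CPM in 8.4/aFGF. In the bFGF groups it had 430.1, 422 and 427 CPM at pH 6.4, 623, 576 and 494 CPM at pH 7.4, and 545, 261 and 511 CPM at pH 8.4. The 3 libraries of 6.4/bFGF lay close together and all below those of 7.4/bFGF, as for 8.02% of all genes tested, while 8.4/bFGF spanned both. Its ratio to C1ra was 1.48 ± 0.163 in FPKM (SD, n = 21).

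C4b, which is cut by C1s and becomes part of the enzyme that cuts C3, was highest in 7.4/bFGF and lowest in 6.4/bFGF. It had 949, 815 and 1056 CPM in control wounds. It had 849.5, 784 and 762 CPM in 6.4/aFGF, 883, 897 and 546 CPM in 7.4/aFGF, and 785, 1039 and 629 CPM in 8.4/aFGF. It had 664, 479 and 640.1 CPM in 6.4/bFGF, 903, 979 and 1182 CPM in 7.4/bFGF, and 949, 484 and 669 CPM in 8.4/bFGF. The low value of 7.4/aFGF was in replicate 3, the library with cartilage and bone genes, and that of 8.4/bFGF in replicate 2. The group means ran from 594 ± 101 CPM in 6.4/bFGF to 1021 ± 145 CPM in 7.4/bFGF (SD, n = 3).

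C3, the central component that all routes cut, was also highest in 7.4/bFGF and lowest in 6.4/bFGF. It had 3203, 2784 and 3799 CPM in control wounds. In 6.4/aFGF it had 3866, 2385 and 4163 CPM, in 7.4/aFGF 4328, 3559 and 2873 CPM, and in 8.4/aFGF 3324, 4907 and 2445 CPM. In 6.4/bFGF it had 2136, 2149.6 and 2721 CPM, in 7.4/bFGF 4447, 4655 and 5013 CPM, and in 8.4/bFGF 3865, 1744 and 2505 CPM. The 7.4/bFGF libraries lay above every library of the other groups except 8.4/aFGF replicate 2, the library with liver genes (4907 CPM). For single pairs of groups, 11.4% of all genes tested were so placed against 7.4/aFGF, 8.02% against 6.4/bFGF and 7.01% against 8.4/bFGF. The shares against the other groups were not computed. The mean of 7.4/bFGF was 4705 ± 286 CPM and that of 6.4/bFGF was 2335 ± 334 CPM (SD, n = 3). Against the 18 libraries of the other groups, 7.4/bFGF had a log2 difference of 0.63 (exact permutation test, two-sided, p = 0.0158). Likewise 6.4/bFGF was lower by 0.56 (log2 difference -0.56, exact permutation p = 0.0368). For C4b, the same test gave 0.43 for 7.4/bFGF (exact permutation p = 0.0481) and -0.48 for 6.4/bFGF (exact permutation p = 0.0256). These belong to 63 such tests, 1 for each member and group, of which 8 (12.7%) had a p under 0.05 before any correction. The same permutation over all genes tested gave a p under 0.05 in 8.86% of tests. Without the 3 libraries with genes of other tissues, an alternative added after the data were seen, the differences were 0.62 and -0.60 for C3 and 0.39 and -0.55 for C4b in 7.4/bFGF and 6.4/bFGF (exact permutation p = 0.0049, 0.00735, 0.0453 and 0.0049).

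Cfb, factor B of the alternative route, varied widely within the control group. It had 613, 1439.9 and 701 CPM in control wounds. It had 933, 685 and 1208 CPM in 6.4/aFGF, 1500.3, 1055 and 879 CPM in 7.4/aFGF, and 791, 1259 and 856 CPM in 8.4/aFGF. It had 616, 898 and 962 CPM in 6.4/bFGF, 994, 1021 and 998 CPM in 7.4/bFGF, and 786, 476 and 589 CPM in 8.4/bFGF. The 7.4/bFGF libraries were nearly equal, and the 8.4/bFGF group had the lowest mean, 617 ± 157 CPM (SD, n = 3). It lay below the 18 other libraries by 0.63 on the log2 scale (log2 difference -0.63, exact permutation p = 0.0135). Without the 3 libraries in which genes of another tissue stood apart, which left 2 in this group, it was at -0.44 (exact permutation p = 0.157).

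The receptors had their largest difference between the growth factors at pH 8.4, although neither was called there. C5ar1, the receptor of C5a that draws in neutrophils and macrophages, had 357, 275 and 204 CPM in 8.4/aFGF and 144, 136 and 118 CPM in 8.4/bFGF. It had 140.2, 223 and 137 CPM in control wounds, 200.1, 177 and 238 CPM in 6.4/aFGF, and 262, 232 and 154 CPM in 7.4/aFGF. It had 117, 192 and 232 CPM in 6.4/bFGF and 193, 176 and 178 CPM in 7.4/bFGF. All libraries of 8.4/aFGF were above all of 8.4/bFGF, as for 14.4% of all genes tested. The log2 difference from the other 18 libraries was 0.63 for 8.4/aFGF (exact permutation p = 0.0105) and -0.58 for 8.4/bFGF (exact permutation p = 0.0263). Without the 3 libraries in which genes of another tissue stood apart, these were 0.59 (exact permutation p = 0.085) and -0.60 (exact permutation p = 0.0784) on 2 libraries a group.

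C3ar1, the receptor of C3a, had 254, 288 and 246 CPM in 8.4/aFGF and 166, 156 and 138 CPM in 8.4/bFGF. It had 214, 284 and 225 CPM in control wounds, 181, 186 and 219 CPM in 6.4/aFGF, and 342, 227 and 235 CPM in 7.4/aFGF. It had 125, 235 and 273 CPM in 6.4/bFGF and 241, 240.4 and 175 CPM in 7.4/bFGF. The 8.4/bFGF group had the lowest mean, 153 ± 14.5 CPM (SD, n = 3). The next lowest mean was 196 ± 20.4 CPM, in 6.4/aFGF (SD, n = 3). Against the other 18 libraries, 8.4/bFGF had a difference of -0.57 on the log2 scale (exact permutation p = 0.00752). The difference of 8.4/bFGF was also -0.57 without the 3 libraries with genes of other tissues (exact permutation p = 0.0458). The FPKM ratio of C3ar1 to C5ar1 ran from 0.426 to 0.983 over the 21 libraries, so the receptors were not in one fixed proportion. Its mean was highest in control wounds, at 0.886 ± 0.112, and lowest in 6.4/aFGF, at 0.575 ± 0.048 (SD, n = 3 each). The other groups had means of 0.590 to 0.758, and the difference between groups was not tested.

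**Figure D2:**
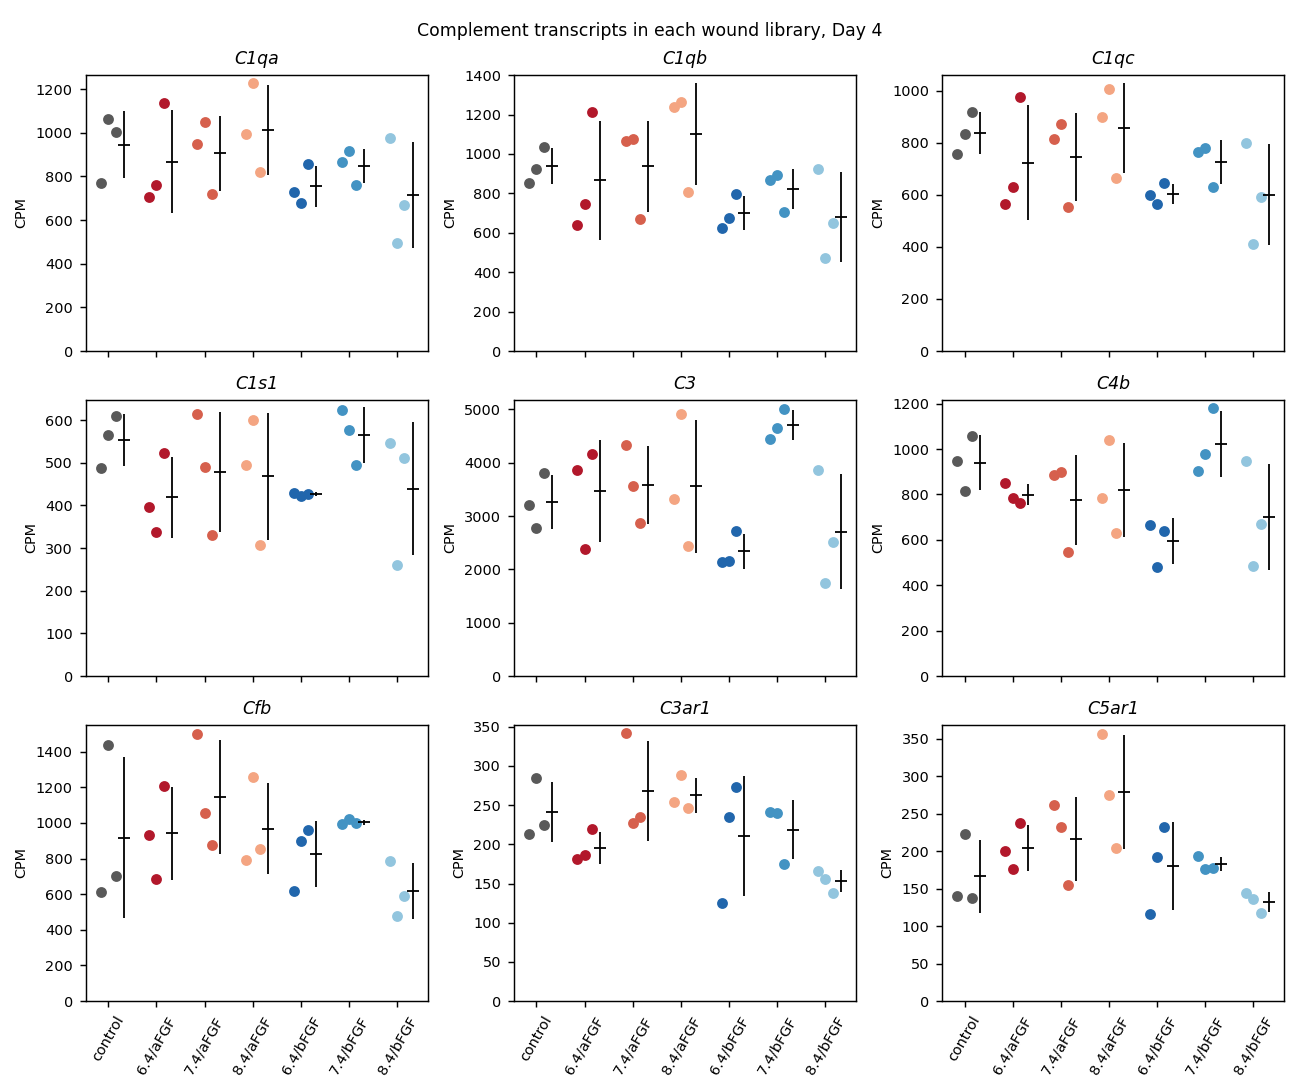
Level of each member in CPM for every library (points) in the 7 groups, with the group mean and SD (bars, n = 3). C3 in 7.4/bFGF lies between 4447 and 5013 CPM and in 6.4/bFGF between 2136 and 2721 CPM, and C5ar1 in 8.4/aFGF lies between 204 and 357 CPM, above the 118 to 144 CPM of 8.4/bFGF.

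Over all 7 groups, no member passed the test of any difference. In edgeR's quasi-likelihood F test, 18 of 15811 genes did (0.114%), and 3055 (19.3%) had an unadjusted p under 0.05, as did 2 of 9 members. These were C5ar1 (unadjusted p = 0.0245, adjusted p = 0.208 in edgeR) and C3ar1 (unadjusted p = 0.0438, adjusted p = 0.248 in edgeR), followed by C3 (adjusted p = 0.278 in edgeR). DESeq2's likelihood ratio test passed 2050 genes (12.7%) and C5ar1 alone of the members (adjusted p = 0.0486 in DESeq2, with 0.0486 to 0.388 over 32 alternatives). The SD of a member's log2 CPM over the libraries was 0.310 to 0.441, against a median of 0.321 for all genes tested.

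Hydrogel with growth factor was compared with the untreated wound to ask what the treatment as a whole changed. No member was called, where 1 of 15811 genes was called higher (0.00632%). The members ran from C4b (log2 fold change -0.28, SE 0.180, adjusted p = 0.447 in edgeR) to C5ar1 (0.22, SE 0.202, adjusted p = 0.598 in edgeR). Neither difference passed, and the others lay between -0.26 (C1s1) and 0.02 (C3). The median of the members was -0.16, beside -0.02 for all genes. No member had an unadjusted p under 0.05, where 2640 genes (16.7%) had, and DESeq2, which called 170 genes (1.12%), called none of the members.

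With bFGF, a pH of 6.4 was set against 7.4. The members C3 and C4b gave the largest differences, and both were lower at pH 6.4. C3 had a log2 fold change of -0.99 (SE 0.146) and C4b one of -0.76 (SE 0.168). No gene of 14976 passed edgeR's test here (0.0%), although 1332 (8.89%) had an unadjusted p under 0.05, and the adjusted p of C3 and C4b was 0.542 (unadjusted p = 0.000405 and 0.00349 in edgeR). DESeq2 called 113 genes (0.748%), C3 (-1.002, adjusted p = 1.37e-08 in DESeq2) and C4b (-0.77, adjusted p = 0.00905 in DESeq2) among them. Over 17 alternatives the adjusted p reached 0.922 for both, and DESeq2 was the only alternative that called them. C1s1 was the other member with an unadjusted p under 0.05 (-0.39, SE 0.123, unadjusted p = 0.0192 in edgeR), which made 3 of 9. The other members lay between -0.26 (Cfb) and 0.00 (C5ar1). C1s1, C3, C4b and Cfb, 4 of 9 members, had all libraries of 6.4/bFGF below all of 7.4/bFGF, as did 8.02% of all genes tested.

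Markers of other cell types were compared in the same groups. The summed level of 8 adipocyte markers was 447 to 1344 CPM in 6.4/bFGF and 763 to 4855 CPM in 7.4/bFGF, with 8 of 8 fold changes negative (median -1.46). Skeletal muscle markers spanned 1610.1 to 2425 CPM and 243 to 12497 CPM, also with 8 of 8 negative (median -1.96), and keratinocyte markers had 12 of 12 positive. Macrophage markers were even, with 8 higher and 8 lower. Fibroblast markers spanned 40849 to 73021 CPM in 6.4/bFGF and 40649.7 to 46552.5 CPM in 7.4/bFGF, with a mean log2 CPM of 9.63 and 9.47. None of these markers was called in edgeR, and none was at 0 counts in any library. Their part in the C3 and C4b values was not tested.

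A pH of 8.4 with bFGF, set against the same 7.4/bFGF libraries, also gave lower values of C3. All 9 members had negative fold changes, with a median of -0.44, beside 0.00 for all genes. The log2 fold change was -0.77 for C3 (SE 0.294), -0.68 for Cfb (SE 0.193), -0.49 for C3ar1 (SE 0.163) and -0.44 for C5ar1 (SE 0.105). Those members had unadjusted p-values of 0.0372, 0.0118, 0.0219 and 0.00541, but no gene of 15092 was called (0.0%), where 864 (5.72%) had an unadjusted p under 0.05 and DESeq2 called 28 genes (0.212%) and no member. The adjusted p in edgeR was at least 0.861 for every member. C3, Cfb, C3ar1 and C5ar1 did not overlap between the groups, as 7.01% of all genes did in this direction. Without 8.4/bFGF replicate 2, the library with ovary and oviduct genes, the receptors kept their values (-0.50 for C3ar1 and -0.45 for C5ar1). In the same fit C3 was at -0.54, Cfb at -0.52 and C4b at -0.31, and the C1q chains and C1s1 lay between -0.07 and -0.02. Interferon response genes had negative fold changes in 18 of 19 cases in this comparison (median -0.50), macrophage markers in 15 of 16 (median -0.29) and neutrophil markers in 11 of 11. Their part in the members' values was not tested.

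With aFGF, no member was called between pH values. In 6.4/aFGF against 7.4/aFGF, no gene of 15019 was called (0.0%), with 750 (4.99%) at an unadjusted p under 0.05 and 20 (0.121%) called by DESeq2, none a member. The largest member value was C3ar1 at -0.45 (SE 0.187, unadjusted p = 0.0479 and adjusted p = 0.832 in edgeR), whose libraries did not overlap, as for 4.79% of all genes. It was at -0.25 without 7.4/aFGF replicate 1. Interferon response genes had negative fold changes in 19 of 19 cases here (median -1.23, 17 with an unadjusted p under 0.05, none called in edgeR), and their part in the C3ar1 value was not tested. The other 8 members lay between -0.28 (Cfb) and 0.04 (C4b). Without 7.4/aFGF replicate 3, the library with cartilage and bone genes, the members lay between -0.53 (C3ar1) and -0.15 (C4b). In 8.4/aFGF against 7.4/aFGF, no gene of 14968 was called (0.0%), with 450 (3.01%) at an unadjusted p under 0.05 and 13 (0.088%) called by DESeq2. Here C5ar1 was at 0.36 (SE 0.251, adjusted p = 1.0 in edgeR) and Cfb at -0.25. With the 3 libraries with genes of other tissues left out, they were at 0.18 and -0.63. Set against the other 6 groups, 6.4/aFGF had members between -0.21 (C1s1) and 0.13 (C5ar1), and no gene of 15811 was called (0.0%), with 895 (5.66%) at an unadjusted p under 0.05 and 9 (0.0481%) called by DESeq2.

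Whether the pH 6.4 effect differed between the growth factors was tested as an interaction. C3 differed by 0.94 on the log2 scale (SE 0.304) and C4b by 0.80 (SE 0.271), with the pH 6.4 value relative to pH 7.4 being lower with bFGF. Neither passed the correction (unadjusted p = 0.0107 and 0.0140, adjusted p = 0.804 for both in edgeR), and no gene of 15449 was called (0.0%), with 941 (6.09%) at an unadjusted p under 0.05 and 28 (0.153%) called by DESeq2. Without 7.4/aFGF replicate 3, the library with cartilage and bone genes, C4b was at 0.61. At pH 8.4 the interaction was 0.80 for C5ar1 (unadjusted p = 0.023, adjusted p = 0.993 in edgeR) and 0.77 for C3, with no gene of 15502 called (0.0%), 734 (4.73%) at an unadjusted p under 0.05 and 4 (0.0218%) called by DESeq2. Without the 3 libraries with genes of other tissues, C5ar1 stood at 0.63 and C3 at 0.08.

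Acidic and basic growth factor were compared over all pH values. C5ar1 had a log2 fold change of 0.50 for aFGF over bFGF (SE 0.143), with an adjusted p of 0.0345 in edgeR's quasi-likelihood test. This size is below the threshold of 0.58, so it was not called. In all, 592 of 15696 genes were called (3.77%), 4688 (29.9%) had an unadjusted p under 0.05, as did 4 of 9 members, DESeq2 called 851 (5.29%) and no member, and 2038 genes (13.0%) had an adjusted p under 0.05 at any fold. An exact permutation within each pH (8000 splits) gave p = 0.01625 for C5ar1, and 7 of 9 aFGF libraries lay above the bFGF median of their own pH. The mean difference was 0.23 at pH 6.4, 0.21 at pH 7.4 and 1.04 at pH 8.4. Without the 3 libraries with genes of other tissues, C5ar1 was at 0.57 (adjusted p = 0.0477 in edgeR). Leaving out 8.4/aFGF replicate 2 alone gave an adjusted p of 0.0593 in edgeR, and leaving out 8.4/bFGF replicate 2 alone 0.0556. Of the 18 fits that left out 1 library, 13 had an adjusted p of 0.05 or more for C5ar1 in edgeR, and over 30 alternatives it ran from 0.00839 to 0.0793. The fits that stayed under 0.05 left out replicate 2 of 6.4/aFGF, replicate 3 of 7.4/aFGF, 8.4/aFGF or 6.4/bFGF, or replicate 1 of 8.4/bFGF.

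The other members did not pass over all pH values. C1qb was at 0.40 (adjusted p = 0.119 in edgeR), Cfb at 0.35 (adjusted p = 0.144 in edgeR), C3ar1 at 0.32 (adjusted p = 0.132 in edgeR), and C1qa and C1qc at 0.27. C3 (0.19), C4b (0.09) and C1s1 (-0.06) lay nearer to 0. The median of the members was 0.27, beside 0.00 for all genes, with 8 of 9 positive. In the permutation within pH, C1qb gave an exact permutation p of 0.04775, with 7 of 9 aFGF libraries above the bFGF median of their own pH. C3ar1 gave an exact permutation p of 0.059, with 4 of 9 such libraries. These are among 9 members tested. Macrophage markers had positive fold changes for aFGF in 14 of 16 cases. Of these, 4 were called higher (among them Cd14 at 1.19, Cd86 at 0.89 and Fcgr1 at 0.67, with adjusted p = 0.0344, 0.0113 and 0.0402 in edgeR). The summed macrophage level was 6936 to 11419 CPM with aFGF and 5010 to 8868 CPM with bFGF. Interferon response genes had positive fold changes in 19 of 19 cases (median 0.47, 2 called higher in edgeR). Of 19 hepatocyte markers tested, 17 were positive and 9 were called higher in edgeR (median 2.73). Their mean log2 CPM was 0.91 ± 1.43 with aFGF and -0.75 ± 0.60 with bFGF (SD, n = 9 libraries each). Their summed level was 639 to 1559 CPM with aFGF and 559.9 to 1922 CPM with bFGF. This sum is weighted to abundant markers such as Trf (median 336 FPKM over the 21 libraries, beside 1.06 FPKM for Alb). The part of these in the members' values was not tested.

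The differences of the receptors between aFGF and bFGF were largest at pH 8.4. The log2 fold change of 8.4/aFGF over 8.4/bFGF was 1.07 for C5ar1 (SE 0.211) and 0.78 for C3ar1 (SE 0.121). Their adjusted p-values in edgeR were 0.102 and 0.0714 (unadjusted p = 0.00154 and 0.000411), so neither was called, and 1 of 15041 genes was (0.00665%), with 3180 (21.1%) at an unadjusted p under 0.05. DESeq2 called 955 genes (6.25%), with C5ar1 (1.06, adjusted p = 0.000252 in DESeq2) and C3ar1 (0.77, adjusted p = 5.31e-06 in DESeq2) among them. Without 8.4/aFGF replicate 3, the lowest of that group for both receptors, C5ar1 was called (1.26, adjusted p = 0.042 in edgeR). Over 18 alternatives the adjusted p ran from 0.000252 to 0.294 for C5ar1 and from 5.31e-06 to 0.27 for C3ar1. Cfb (0.65, unadjusted p = 0.0375 in edgeR) and C1qb (0.70, unadjusted p = 0.0472 in edgeR) brought the members with an unadjusted p under 0.05 to 4 of 9. Cfb, C3ar1 and C5ar1 did not overlap between the groups, as 14.4% of all genes did in this direction.

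The library with liver genes and the one with ovary and oviduct genes are both in the pH 8.4 comparison. Without the 3 libraries with genes of other tissues, C5ar1 was at 1.09 (adjusted p = 0.294 in edgeR) and C3ar1 at 0.71 (adjusted p = 0.243 in edgeR). The receptors were thus about as large without them, on 2 libraries a group. The other members were not. Cfb went to 0.25, C1qb to 0.37 and C1qa to 0.13, and C3 went from 0.40 to -0.15, C4b from 0.23 to -0.20 and C1s1 from 0.09 to -0.41. Macrophage markers had positive fold changes in 15 of 16 cases (summed level 7375 to 11419 CPM against 5010 to 7510 CPM, median 0.38, none called in edgeR). Neutrophil markers had positive ones in 10 of 11 cases (4961 to 12075 CPM against 3965 to 10023 CPM, median 0.81). Hepatocyte markers were positive in 10 of 12 cases (median 3.12). The part of these cell types in the receptor values was not tested.

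At the other pH values the receptors had smaller differences between the growth factors, while C3 and C4b had fold changes of opposite sign at pH 6.4 and pH 7.4. In 6.4/aFGF against 6.4/bFGF, C3 was at 0.57 (SE 0.247, unadjusted p = 0.0568 in edgeR) and C4b at 0.42 (SE 0.159, unadjusted p = 0.0352 and adjusted p = 0.598 in edgeR). No gene of 14994 was called (0.0%), with 1223 (8.16%) at an unadjusted p under 0.05 and 119 (0.755%) called by DESeq2. C4b did not overlap between these groups, as 8.35% of all genes did. In 7.4/aFGF against 7.4/bFGF both C3 and C4b were at -0.39 and did not overlap, as 11.4% of all genes did. Without 7.4/aFGF replicate 3 they were at -0.26 and -0.20. No gene of 15049 was called (0.0%), with 1960 (13.0%) at an unadjusted p under 0.05 and 264 (1.67%) called by DESeq2. C5ar1 was at 0.18 and 0.25 in these comparisons and C3ar1 at -0.11 and 0.29, so only at pH 8.4 did both receptors stand beyond the fold threshold.

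**Figure D3:**
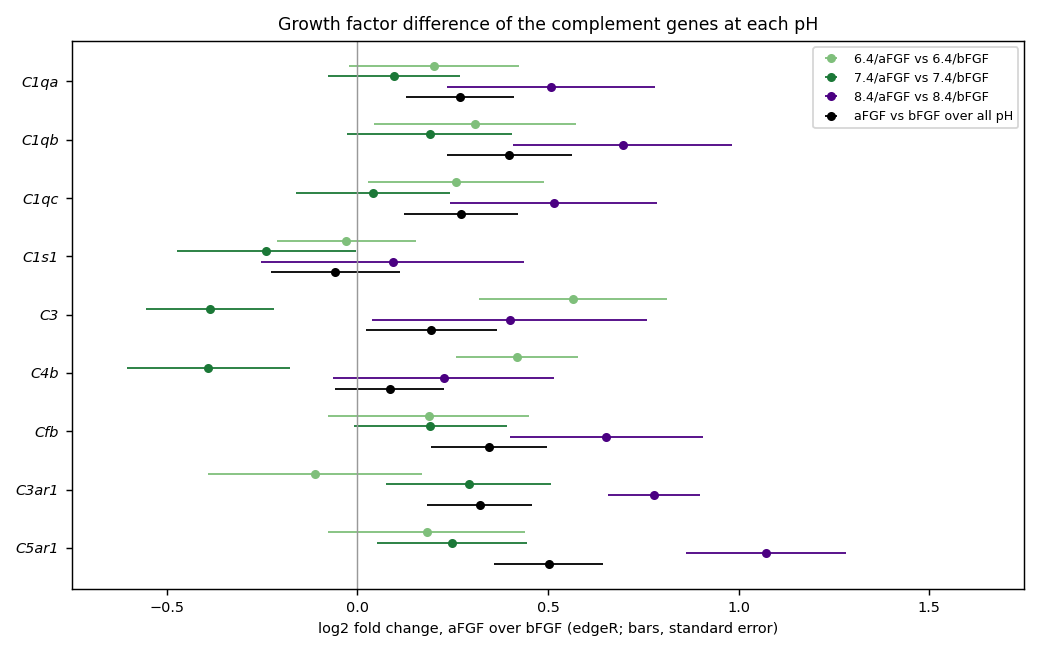
Log2 fold change of aFGF over bFGF for each member at each pH (colours, n = 3 libraries a group) and over all pH (black, n = 9), from edgeR, with the SE as bars. C5ar1 goes from 0.18 at pH 6.4 and 0.25 at pH 7.4 to 1.07 at pH 8.4, and C3 lies at 0.57, -0.39 and 0.40.

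The other complement genes were tested in the same fits. Of the 49, 34 passed the filter on low counts over all 21 libraries, and 0 were called in any comparison by edgeR. In the test of any difference among the 7 groups, where 19.3% of all genes had an unadjusted p under 0.05, 3 of the 34 did. Among them were Colec12, a scavenger lectin (unadjusted p = 0.00567, adjusted p = 0.134 in edgeR), and Itgax, a chain of the complement receptor CR4 (unadjusted p = 0.0479, adjusted p = 0.255 in edgeR). In 6.4/bFGF against 7.4/bFGF, 27 of 33 genes tested were negative, with a median of -0.27 beside 0.01 for all genes. Of the 33, 7 had an unadjusted p under 0.05, beside 8.89% of all genes. The genes named here for that comparison were chosen after their values were seen. C7 was at -2.07, C6 at -1.20, Fcna, a ficolin of the lectin route, at -1.04, C1rl at -0.42, C2 at -0.40 and C1ra at -0.27. None of the 7 had an adjusted p below 0.542 in edgeR.

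A set of complement genes made mainly by the liver had most of its counts in a single library. These 8 genes were chosen after their values were seen, so the pattern depends on the choice. Among the listed genes left out, Hc was highest in control replicate 1 (2.80 FPKM), Cfi in 7.4/bFGF replicate 3 (1.17 FPKM) and Masp2 in 8.4/bFGF replicate 2 (0.422 FPKM). C8g (1.37 FPKM) and Vtn (10.6 FPKM), also left out, were highest in 8.4/aFGF replicate 2. In 8.4/aFGF replicate 2, C8a, a chain of the membrane pore, had 39 counts and 5 in the next highest library, and C8b had 37 counts and 0 elsewhere. The mannose-binding lectins Mbl1 and Mbl2 had 15 and 49 counts, with 1 and 2 in the next library. C4bp, an inhibitor of the classical route, had 49 counts and 5 in the next. C9 had 26 counts and 12 in the next, and Cfhr2 and Cfhr3 had 58 and 2 counts, with 10 and 0 in the next. Their sum was 275 counts in this library and 0 to 16 counts in the other 20. Some were also present elsewhere, since C9 was at 0 in only 4 and Cfhr2 in only 5 of the other 20 libraries. These counts are few in a library of 37032127 counts, and a count of 0 allows for up to 3. C3, which liver also makes, had 4907 CPM in this library, the highest of its group, and the share of it that came from liver RNA was not tested.

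**Figure D4:**
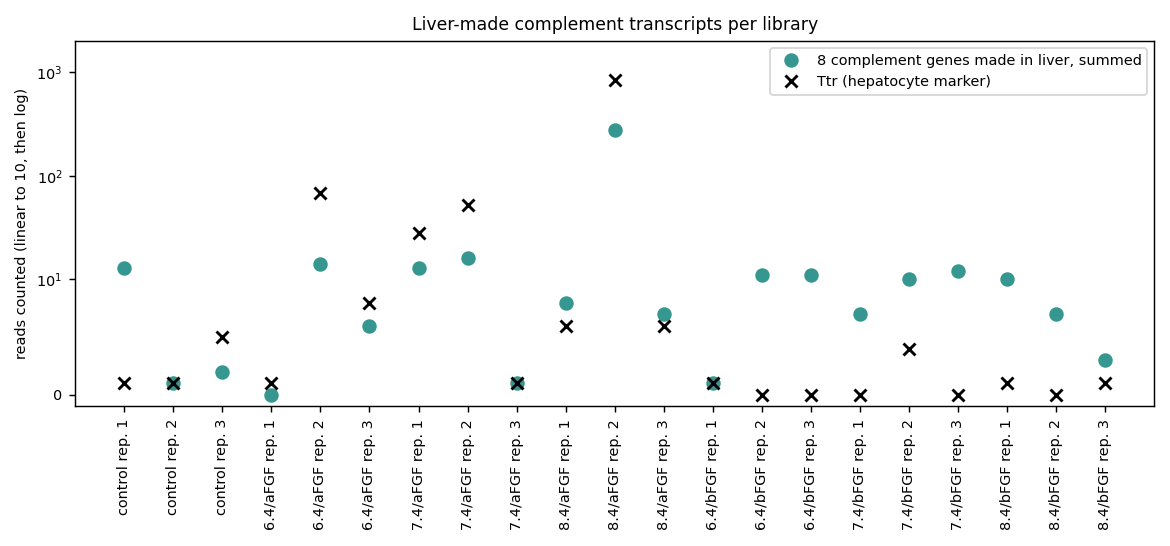
Summed counts of 8 complement genes made mainly by the liver (C8a, C8b, C9, C4bp, Mbl1, Mbl2, Cfhr2 and Cfhr3) in each of the 21 libraries (circles), with the liver gene Ttr (crosses), in counts on an axis that is linear up to 10 and then logarithmic. Replicate 2 of 8.4/aFGF has 275 counts of the set and 830 of Ttr, and the other libraries have 0 to 16 and 0 to 68. The 8 genes were chosen after their values were seen.

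The members fell into blocks by how they varied over the libraries. Pearson's r of log2 CPM over 21 libraries was 0.95 for C1qa with C1qb, 0.96 for C1qa with C1qc and 0.97 for C1qb with C1qc. With group means removed these were 0.93, 0.96 and 0.98. C3 went with C4b (0.84, and 0.80 within groups), and C3ar1 with C5ar1 (0.75, and 0.75 within groups). Cfb stood nearer to the receptors, with 0.74 for C3ar1 and 0.70 for C5ar1. C4b was far from them, with 0.18 for C3ar1 and 0.17 for C5ar1. The points share their library, and with it its depth and tissue makeup, so these 36 correlations are given as a description.

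Marker genes of cell types followed some members more closely than others. With the mean log2 CPM of 16 macrophage markers over 21 libraries, r was 0.87 for Cfb, 0.86 for C3ar1, 0.82 for C1qb, 0.81 for C1qa, 0.80 for C5ar1 and 0.75 for C1qc. It was 0.53 for C3, 0.51 for C1s1 and 0.35 for C4b. Within groups the first of these stayed at 0.85 for Cfb and 0.77 for C3ar1. Neutrophil markers gave 0.44 for C5ar1, acute phase and NF-kappa B genes gave 0.67 for it, and adipocyte markers gave 0.53 for C4b. C3ar1 went against endothelial markers (r = -0.73, and -0.77 within groups). The correlation of Cfb with interferon response genes was 0.60 and fell to 0.30 without the 2 libraries farthest from the median, so it rests on those libraries.

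**Figure D5:**
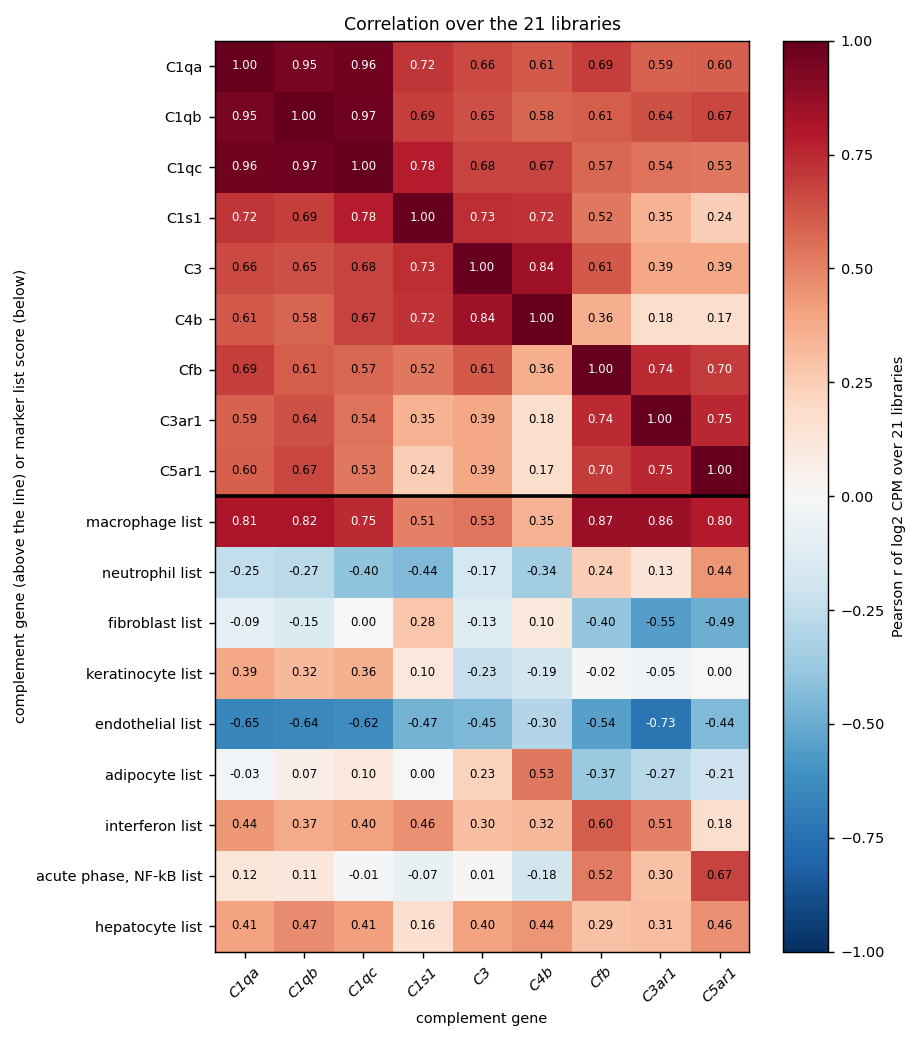
Pearson's r of log2 CPM over the 21 libraries between the members, and between each member and the mean of each marker list. The C1q chains share r of 0.95 to 0.97, C3 and C4b share 0.84, and Cfb (0.87) and C3ar1 (0.86) have the highest r with the macrophage markers.

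The genes whose levels were most like each member were sought among 15810 other genes, by r over the 21 libraries. The nearest of each C1q chain were the other 2 chains, followed by Cfp for C1qa (0.90), Rnf130 for C1qb (0.94) and Grn, the progranulin gene, for C1qc (0.94). C1s1 was nearest to C1ra (0.90), then Ly6c1 (0.88) and Ms4a4d (0.87). C1ra lies beside C1s1 on chromosome 6, and the C1q chains lie beside each other on chromosome 4 in the order C1qb, C1qc and C1qa (gene order of assembly GRCm38.p6). C3 was nearest to C4b (0.84), then Cog8 (0.79) and Mup3 (0.77), and C4b to Cpq (0.86), C3 and Ism1 (0.84). Both C3 and C4b lie on chromosome 17 but are not neighbours there. Cfb, which lies beside C2 on chromosome 17, was nearest to Ifitm3, an interferon-induced membrane protein (0.94), Shisa5 (0.91) and Atp6v0c (0.89). C3ar1 was nearest to Btk (0.91), a kinase of B cells and myeloid cells, to Spi1 (0.89), a transcription factor of myeloid cells, and to Cyth4 (0.88). C5ar1 was nearest to Arf2 (0.93), Ugdh (0.93) and Cdc42se1 (0.92). With so many genes compared over 21 libraries, high values of r are given by rank and not as evidence of a link.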

How the data were processed

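RNA-seq of 21 wound libraries was used, 3 in each of 7 groups taken from the labels. Per the labels, total RNA was made into stranded poly(A) libraries, and the submitters' processing notes name GRCm39 as the genome build. The aligner, the counter, its strand setting and the annotation are not given in the sources used here. The authors deposited raw counts per gene, without normalization, and FPKM values, in which each gene has 1 length in all libraries and each deposited count is divided by that length and the total of its library (checked on 13158 genes, spread of the recovered length at most 5.57e-06%). A RefSeq table of GRCm38.p6 held 18662 of the 18806 symbols (99.2%) and was used for names and gene order only.

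Total counts were 34362558 to 37817833 per library (median 36771838). A count of 0 allows up to 3 counts, and this floor covers counting error only. Libraries of a group differed by more than counting noise (chi-square per degree of freedom at least 17.2), so none was counted as a duplicate, and errors are SDs over libraries.

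Counts were fitted over all genes in R 4.3.3 with edgeR 4.0.16 (TMM, default filter by group, quasi-likelihood F test, Benjamini-Hochberg adjustment, prior count 2 for log2 CPM). Comparisons of groups used the libraries compared, and the test of any difference, the hydrogels against control and 6.4/aFGF against the rest used all 21. Single values were tested by two-sided exact permutation. The scripts were tested on simulated data. Of genes changed 2-fold there, 18.2% were called for 6.4/aFGF against 7.4/aFGF and 12.1% for the interaction at pH 6.4. For aFGF against bFGF over all pH, 76.1% were called. A gene not called may therefore still have changed. Alternatives were DESeq2 1.42.0, limma 3.58.1 on log2(FPKM + 1) or log2(FPKM + 0.1) of genes with a mean of at least 1 FPKM, RLE normalization, robust dispersion, no filter on low counts or a minimum of 10 counts per library, no fold threshold, a fit of all libraries, a replicate block and leaving out libraries.

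The members and the gene lists were chosen with earlier results of these data known. Named were the 9 members, defining genes of each complement arm, the 3 other complement genes with the smallest p over all groups (results for some genes are not reported here), and the 3 genes most like each member. Others are said to be chosen after their values were seen. Marker lists had 16 macrophage, 11 neutrophil, 12 fibroblast, 12 keratinocyte, 8 endothelial, 8 adipocyte and 8 skeletal muscle genes, among others.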

Additional observations from a re-analysis of the deposited data

How the results depend on the processing

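Neither C3, C4b nor the receptors were called in edgeR's main analysis, and these calls depend on the tool. DESeq2 with default settings called 2050 genes in the test of any difference, 1 of them a member, 170 for hydrogels against control, 20 for 6.4/aFGF and 13 for 8.4/aFGF against 7.4/aFGF, 113 for 6.4/bFGF (2 members) and 28 for 8.4/bFGF against 7.4/bFGF. For aFGF against bFGF it called 119 at pH 6.4, 264 at pH 7.4 and 955 at pH 8.4 (2 members), and 9 for 6.4/aFGF against the other groups, 28 for the interaction at pH 6.4 and 4 at pH 8.4. Without the fold threshold, edgeR called 2038 genes for aFGF against bFGF, 1 a member (C5ar1), and 2 for hydrogels against control, where a filter of at least 10 counts gave 5. In limma on log2(FPKM + 1), aFGF against bFGF gave 250 genes, and 227 without a filter, and log2(FPKM + 0.1) gave 1 at pH 7.4. The fit of all 21 libraries gave 12 at pH 7.4 and 10 at pH 8.4. Without the 3 libraries with genes of other tissues, 3 genes passed the test of any difference, 0 the hydrogel comparison and 0 the one at pH 8.4, and the exact permutation of a group against the others no longer passed for Cfb (-0.44) and C5ar1 (-0.60) in 8.4/bFGF and C5ar1 (0.59) in 8.4/aFGF, an alternative added after the data were seen. The causes were not tested.

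Libraries of the same replicate number correlated at -0.64 to 0.42 in their deviations from the group means. The median was 0.059 for number 1, -0.015 for number 2 and -0.020 for number 3. Libraries of different numbers were not set beside them, so these values cannot decide whether the numbers pair the libraries. With the number as a replicate block, 10 genes passed the test of any difference, 2 the hydrogel comparison and 0 that at pH 8.4, and 468 that of aFGF against bFGF, with 0 members called in each.

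Of the 68 gene fold changes, some changed sign. For hydrogels against control, limma on log2(FPKM + 1) gave -0.0137 for C3 and 0.0402 for Cfb, with or without a filter, and on log2(FPKM + 0.1) -0.0138 and 0.0404. For 8.4/aFGF against 8.4/bFGF it gave -0.0345 and -0.0346 for C1s1. Without the 3 libraries, C1s1 was at -0.41, C3 at -0.15 and C4b at -0.20 there. Of the values under other settings, 753 kept direction and side of the threshold, 5 passed it and 12 changed sign.

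Leaving out 1 library moved the genes called from 7 (without control replicate 1) to 864 (without control replicate 2) in the test of any difference, from 0 to 1189 (without control replicate 2) for hydrogels against control, from 339 (without 6.4/bFGF replicate 1) to 818 (without 7.4/aFGF replicate 3) for aFGF against bFGF, from 0 to 278 (without 7.4/bFGF replicate 3) for 6.4/bFGF against 7.4/bFGF, and from 0 to 172 (without 8.4/aFGF replicate 3) at pH 8.4, with members called there from 0 to 1. It gave 0 to 1 at pH 7.4 and for 6.4/aFGF against the other groups. Fold changes that crossed 0 ranged, for hydrogels against control, from -0.0806 to 0.15 for C3 and -0.25 to 0.45 for Cfb, and for aFGF against bFGF from -0.15 to 0.0186 for C1s1. For 6.4/aFGF against 7.4/aFGF they were -0.31 to 0.0792 for C1qa, -0.44 to 0.0756 for C1qb, -0.33 to 0.12 for C1qc, -0.39 to 0.0184 for C1s1, -0.21 to 0.14 for C3, -0.15 to 0.16 for C4b and -0.26 to 0.0723 for C5ar1. At pH 8.4 they were -0.17 to 0.32 for C1s1 and -0.0117 to 0.49 for C4b, and at pH 6.4 -0.0513 to 0.38 for C5ar1 and -0.38 to 0.0919 for C3ar1.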

Other observations

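The proportion of the C1q chains had a small difference between the growth factors. The FPKM ratio of C1qc to C1qb was 0.795 ± 0.043 with aFGF and 0.864 ± 0.042 with bFGF (SD, n = 9 libraries each), with ranges of 0.716 to 0.864 and 0.797 to 0.942 that overlapped, and the mean of the control wounds was 0.879 (n = 3). The ratio was looked at after the members' values were known, and the difference was not tested.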
